A study of Homo sapiens with 6 samples.

Results

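The LEM domain proteins and nuclear lamins are a group of 10 genes that were chosen by name from the proteins of the inner nuclear membrane and of the lamina beneath it. The 10 genes were LEMD1, LEMD2, LEMD3, EMD, TMPO and ANKLE2, which carry a LEM domain, BANF1, which that domain binds, and LMNA, LMNB1 and LMNB2, which encode the lamins. All 10 were measured, by 15 of the 24565 probes that could be assigned to 1 of 19152 genes on the array design. The measurements came from HSC3, an established human oral squamous cell carcinoma line, on 6 one-colour microarrays, with 1 array each for cells labelled as given an siRNA against LEMD1, MIA, MIA2, TANGO or MATE2 and 1 for control cells. TANGO is an older name of MIA3, and SLC47A2, a transporter that exports organic cations and drugs, is the gene known as MATE2. The control cells received a control siRNA according to the deposited design, whereas the array methods describe them as untreated, and the time between transfection and RNA extraction is not given in the sources used here.

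The LEM domain is a short helical fold named after LAP2, emerin and MAN1, the products of TMPO, EMD and LEMD3. It binds barrier-to-autointegration factor, the small DNA-bridging protein encoded by BANF1, and so ties membrane proteins to chromatin, while the lamins form the filament meshwork that these proteins also contact. A-type lamins come from LMNA and the B-type lamins from LMNB1 and LMNB2. LEMD1 differs from the rest in being a cancer-testis antigen, a gene normally restricted to the testis that many tumours express, and it was the target of interest of the study.

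LEMD1 and ANKLE2 were the members with the widest and the narrowest range of signal over the 6 arrays, and the sequences around their annotated starts are shown for that contrast. Each window runs from 250 bases before to 50 bases after the start in the RefSeq annotation of GRCh38.p14, 5′ to 3′ on the strand of the gene, with CpG dinucleotides in capitals. The LEMD1 window lies at chr1:205422007-205422306 on the minus strand and the ANKLE2 window at chr12:132761783-132762082 on the minus strand.
LEMD1: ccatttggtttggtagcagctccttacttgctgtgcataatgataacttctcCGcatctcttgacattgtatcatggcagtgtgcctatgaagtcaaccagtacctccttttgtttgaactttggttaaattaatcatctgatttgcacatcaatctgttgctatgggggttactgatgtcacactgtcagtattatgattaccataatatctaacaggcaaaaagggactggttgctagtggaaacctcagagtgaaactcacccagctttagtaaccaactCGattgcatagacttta
ANKLE2: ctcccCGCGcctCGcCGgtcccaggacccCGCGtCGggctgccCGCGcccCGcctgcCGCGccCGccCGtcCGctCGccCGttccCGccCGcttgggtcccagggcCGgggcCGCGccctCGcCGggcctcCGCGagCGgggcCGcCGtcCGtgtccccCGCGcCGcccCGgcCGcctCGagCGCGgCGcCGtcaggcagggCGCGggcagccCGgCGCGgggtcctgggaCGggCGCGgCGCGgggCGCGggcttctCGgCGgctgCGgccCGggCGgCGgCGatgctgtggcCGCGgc
The LEMD1 window held 2 CpG dinucleotides and 40.3% G and C, and 18.2% of the 35116 RefSeq windows of this length held as few CpG or fewer. The ANKLE2 window held 61 CpG and 87.0% G and C, against a median of 14 CpG over all windows. LEMD2 was the other member with a CpG-poor window, with 4 CpG. The windows of LEMD3, EMD, TMPO, BANF1, LMNA, LMNB1 and LMNB2 held between 16 and 40 CpG. Short motifs were searched on both strands, namely the TATA box TATAAA, the GC box GGGCGG, the CCAAT box CCAAT and the AP-1 site TGACTCA, which occur in 11.5%, 45.0%, 34.6% and 4.95% of all windows. None of them was found in the windows of LEMD1, LEMD2 and BANF1 or in 1 of the LMNB1 windows, and TATAAA and TGACTCA were found in no window of a member. These counts describe letters in a window of reference sequence and were not compared with the array values.

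Each value below is the quantile normalized signal of a probe, in arbitrary units, after subtraction of the local background. The scanner flagged each spot as good or as near background, and between 27545 and 30628 of the 53103 gene spots were good on an array. A probe was compared between 2 arrays where its spot was good on both, and a difference was counted where it was at least 2-fold, which corresponds to a log2 ratio of 1 or more in either direction. There was 1 array per condition, so no spread between replicates could be measured, no test was possible and no p-value is given. All 5 siRNA arrays were set against the same control array, so the comparisons share its error. Of the 15 member probes, 9 cite a RefSeq mRNA in the scanner files and 6 another GenBank entry, and 13 were good on all 6 arrays. Signals of different probes are not comparable with each other, and only the same probe is compared across arrays.

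The targeted genes were measured first as a check of the labels. LEMD1 was near background on the array labelled LEMD1 siRNA, and also on the array labelled MIA2 siRNA. SLC47A2 had a signal of 79.6 on the array labelled MATE2 siRNA and of 58.9 on the array labelled TANGO siRNA, against 1509.8 on the control array. The MIA2 gene had a signal of 169 on the array labelled MIA2 siRNA and of 155 on the control array, so its message was not lower there. MIA was near background on all 6 arrays, and no probe was assigned to MIA3. The low targets therefore fell on pairs of arrays, LEMD1 on the arrays labelled LEMD1 siRNA and MIA2 siRNA, and SLC47A2 on those labelled TANGO siRNA and MATE2 siRNA. Over the 23444 probes good on all arrays, 0.926% differed by at least 2-fold between the arrays labelled LEMD1 siRNA and MIA2 siRNA and 0.913% between the MIA siRNA and control arrays, which were the smallest shares of the 15 pairs of arrays. Squamous epithelial markers such as KRT5, KRT14 and TP63 were good on every array, 9 of 9 measured. Their summed signal was 38855 on the array labelled LEMD1 siRNA and 37949 on the array labelled MIA2 siRNA, and lay between 15154 and 17538 on the other 4 arrays, control included. The brightest probes weigh most in this sum, so it does not describe each marker. Of the markers of other cell types, 3 or 4 of 6 fibroblast genes, 1 or 2 of 5 endothelial genes and 2 or 3 of 5 leukocyte genes were good, with summed signals of at most 657. Sums over different probes are not comparable between cell types.

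LEMD1 was the member that differed most between arrays. Its probe, GE508462, had a signal of 27.6 on the array labelled LEMD1 siRNA, near background, 195 on the array labelled MIA siRNA, 42.3 on the array labelled MIA2 siRNA, also near background, 3192 on the array labelled TANGO siRNA, 1011 on the array labelled MATE2 siRNA and 278 on the control array. The 6 values thus fell into a high pair, an intermediate pair and a pair at background, and the members of each pair were the arrays that shared a low target or, for the intermediate pair, the array labelled MIA siRNA and control. A spot near background gives only a bound, for which the higher of its own signal and the lowest good signal of its array was used. LEMD1 was at least 10.1-fold lower on the array labelled LEMD1 siRNA than on the control array, and at least 6.57-fold lower on the array labelled MIA2 siRNA. The bound of 10.1 became 4.09 with normexp background correction, 3.71 with no background correction and 4.23 with 50 added to the signal. RNA was taken from whole cultures, so fewer expressing cells and less message per cell cannot be told apart.

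On the other pair, LEMD1 was higher than on the control array. The array labelled TANGO siRNA had 11.5-fold the LEMD1 signal of control, a log2 ratio of 3.52 that ranked 22 from the top among 26354 probes. The array labelled MATE2 siRNA had 3.64-fold the signal of control, a log2 ratio of 1.86 that ranked 175 among 26648 probes. Both stayed past 2-fold under all 12 alternative ways of processing the arrays, with log2 ratios between 3.19 and 4.03 for the array labelled TANGO siRNA and between 1.64 and 2.37 for the array labelled MATE2 siRNA. The flag filters counted among the 12 leave a ratio unchanged by design. Within this pair, LEMD1 was 3.16-fold higher on the array labelled TANGO siRNA than on the array labelled MATE2 siRNA. From the array labelled TANGO siRNA to the array labelled LEMD1 siRNA the distance was at least 116-fold.

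The array labelled MIA siRNA stood closest to control, with 0.702 of the control signal of LEMD1, a log2 ratio of -0.51. That ratio was under the 2-fold limit, but it ranked 25497 from the top among 26688 probes on an array whose ratios to control had a robust standard deviation of 0.287. In order of signal the arrays therefore ran TANGO, MATE2, control and MIA siRNA, followed by MIA2 and LEMD1 siRNA near background. With 1 array each, the order of control and the array labelled MIA siRNA, and that of the 2 arrays near background, cannot be told from the spread of a single measurement.

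**Figure D1:**
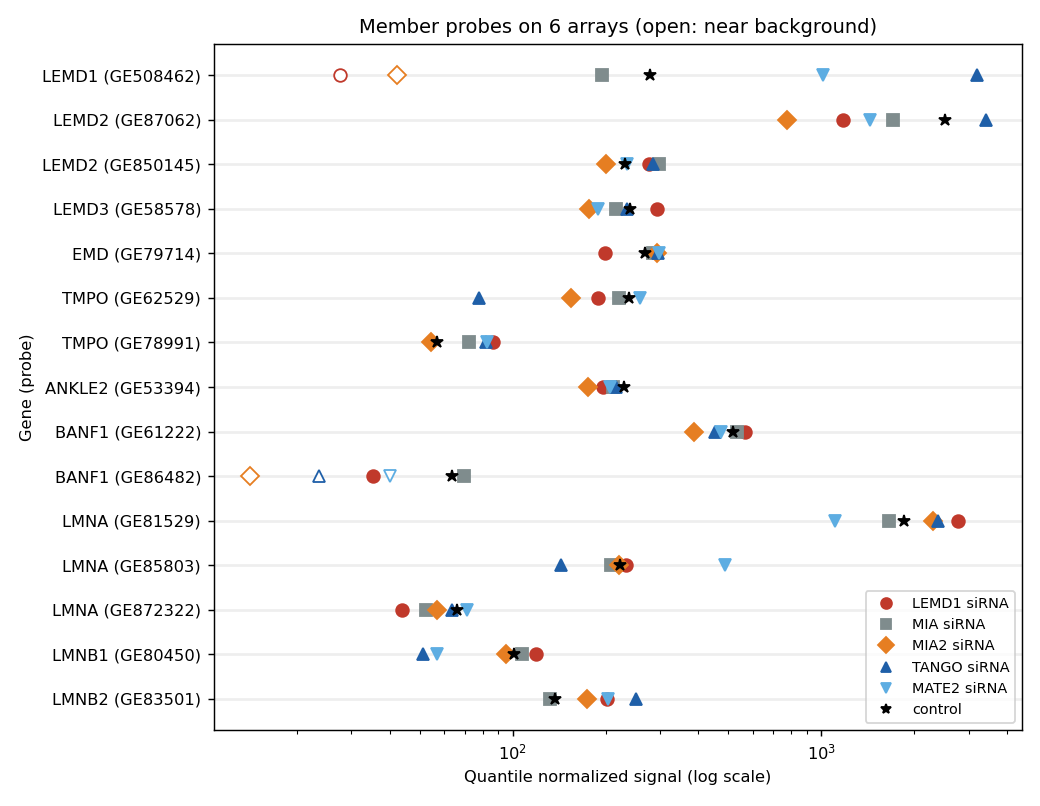
Quantile normalized signal (log scale, arbitrary units) of the 15 probes of LEM domain and lamin genes on the 6 arrays, 1 symbol per array, with open symbols for spots near background. LEMD1 spans from 27.6 to 3192, whereas ANKLE2 stays between 176 and 229.9, and signals are comparable within a row only.

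The genes whose ratios to control were nearest to those of LEMD1 were sought among 13700 named genes, by the mean absolute difference of the log2 ratios over the 5 siRNA arrays. They were S100A9, GNG4, UCA1, CYP1B1 and CXCL8, at distances of 0.50, 0.96, 0.99, 1.14 and 1.17, against a median distance of 2.40 over all ranked genes. The nearest genes lie below that median by selection. Its size depends on the ratios of LEMD1 itself, so it does not test the likeness. S100A9, a calcium-binding protein of inflamed and stratified epithelia, had a signal of 143 on the array labelled LEMD1 siRNA, 639 on the array labelled MIA siRNA, 226 on the array labelled MIA2 siRNA, 13048 on the array labelled TANGO siRNA, 4591 on the array labelled MATE2 siRNA and 867 on the control array. S100A9 was thus also highest on the array labelled TANGO siRNA and next highest on the array labelled MATE2 siRNA, and lowest on the 2 arrays where LEMD1 was near background, with log2 ratios to control of -2.60, -0.44, -1.94, 3.91 and 2.40 in the same sequence of siRNA labels. GNG4, a G protein gamma subunit, was near background on the arrays labelled LEMD1 siRNA and MIA2 siRNA, as LEMD1 was, but had a log2 ratio of 0.00071 on the array labelled MATE2 siRNA. UCA1, a long non-coding RNA of urothelial and other carcinomas, had log2 ratios of 1.84 on the array labelled TANGO siRNA and 0.996 on the array labelled MATE2 siRNA. CYP1B1, a cytochrome P450 enzyme, and CXCL8, a neutrophil chemokine, were the 2 whose ratios on the array labelled LEMD1 siRNA were closer to 0, at -1.06 and -0.83. None of the other 9 members was near LEMD1 by this measure, with distances between 1.81 for LEMD2 and 2.80 for LMNB1. Each gene was ranked by 1 probe, LEMD2 by GE87062, and the other probes of the members were not ranked. The 5 arrays share 1 control array and fall into the pairs given above, so the likeness rests on fewer independent comparisons than 5.

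**Figure D2:**
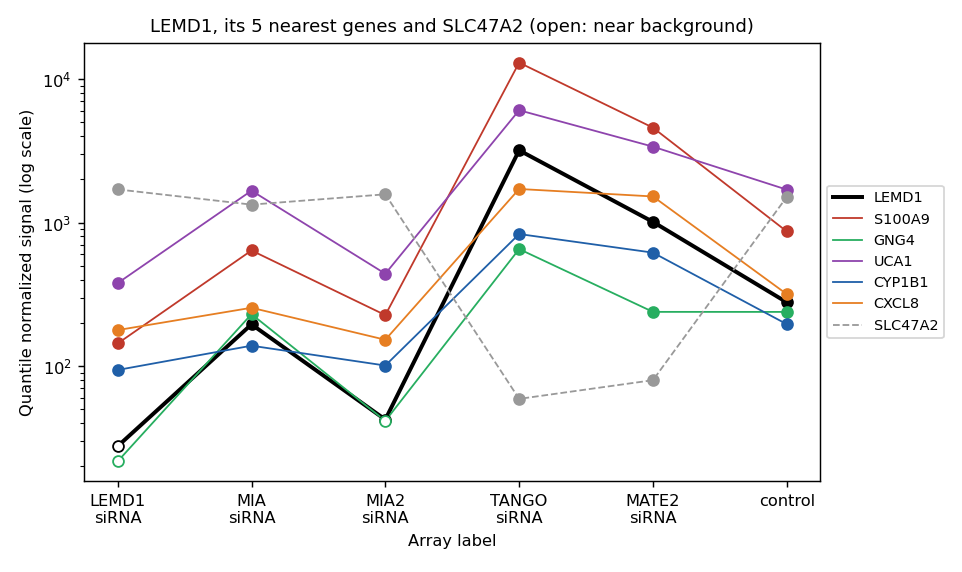
Quantile normalized signal (log scale, arbitrary units) of LEMD1, its 5 nearest genes and SLC47A2 on the 5 siRNA arrays and the control array, with open points for spots near background. LEMD1 and S100A9 are both highest on the array labelled TANGO siRNA and low on the arrays labelled LEMD1 siRNA and MIA2 siRNA, while SLC47A2 is lowest on the array labelled TANGO siRNA, at 58.9, and next lowest on the array labelled MATE2 siRNA, at 79.6.

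LEMD2 encodes an inner nuclear membrane protein that takes part in sealing the nuclear envelope after mitosis, and its probes disagreed. Probe GE87062, which cites a RefSeq mRNA, had a signal of 1176 on the array labelled LEMD1 siRNA, 1708 on the array labelled MIA siRNA, 777 on the array labelled MIA2 siRNA, 3409.5 on the array labelled TANGO siRNA, 1442 on the array labelled MATE2 siRNA and 2525 on the control array. It was lowest on both arrays on which LEMD1 was near background, with log2 ratios of -1.10 on the array labelled LEMD1 siRNA and -1.70 on the array labelled MIA2 siRNA. The ratio on the array labelled LEMD1 siRNA was -0.54 when the array labelled MIA siRNA, or the median of the other 5 arrays, took the place of the control array, and was then under 2-fold. The ratio on the array labelled MIA2 siRNA was -1.14 with either of these comparators and stayed past 2-fold. For this probe the median of the other 5 arrays was the signal of the array labelled MIA siRNA, so both comparators are the same comparison.

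The second LEMD2 probe, GE850145, had a signal of 277 on the array labelled LEMD1 siRNA, 299 on the array labelled MIA siRNA, 200.5 on the array labelled MIA2 siRNA, 285 on the array labelled TANGO siRNA, 234 on the array labelled MATE2 siRNA and 232 on the control array. All its ratios to control were within 2-fold, from -0.21 to 0.37 on the log2 scale, and that on the array labelled LEMD1 siRNA was 0.26, in the opposite direction to the first probe. The gap between both probes was 1.36 on that array, against a median gap of 0.33 over the 2163 genes with several good probes, and 1.49 on the array labelled MIA2 siRNA, against a median of 0.42. By contrast, the gap was 0.14 on the array labelled TANGO siRNA, with log2 ratios of 0.43 and 0.30. Which LEMD2 transcripts each probe detects was not tested.

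LEMD3 encodes MAN1, which binds SMAD proteins and limits TGF-beta and BMP signalling. It had a signal of 293 on the array labelled LEMD1 siRNA, 216 on the array labelled MIA siRNA, 177 on the array labelled MIA2 siRNA, 235 on the array labelled TANGO siRNA, 189 on the array labelled MATE2 siRNA and 239.6 on the control array. LEMD3 was highest on the array labelled LEMD1 siRNA and lowest on the array labelled MIA2 siRNA, the opposite ends of its range on the 2 arrays with low LEMD1, and all its log2 ratios to control lay between -0.44 and 0.29.

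EMD encodes emerin, the product of the X-linked Emery-Dreifuss muscular dystrophy gene. Its signal was 199 on the array labelled LEMD1 siRNA, 285 on the array labelled MIA siRNA, 293 on the array labelled MIA2 siRNA, 296 on the array labelled TANGO siRNA, 298 on the array labelled MATE2 siRNA and 268 on the control array. The array labelled LEMD1 siRNA was the single low one, at a log2 ratio of -0.43, while the other 4 siRNA arrays lay slightly above control, between 0.089 and 0.15. The array labelled MIA2 siRNA, where LEMD1 was also near background, was thus on the other side of control.

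ANKLE2, which controls the phosphorylation of barrier-to-autointegration factor at mitotic exit, was the steadiest member. Its signal was 197 on the array labelled LEMD1 siRNA, 211 on the array labelled MIA siRNA, 176 on the array labelled MIA2 siRNA, 216 on the array labelled TANGO siRNA, 207 on the array labelled MATE2 siRNA and 229.9 on the control array. ANKLE2 was highest on the control array and its whole range was 0.38 on the log2 scale, which was exceeded by 91.7% of the 23444 probes good on all arrays.

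TMPO encodes lamina-associated polypeptide 2, whose beta form spans the inner nuclear membrane and whose alpha form binds A-type lamins in the nucleoplasm. Probe GE62529 had a signal of 189 on the array labelled LEMD1 siRNA, 220.4 on the array labelled MIA siRNA, 155 on the array labelled MIA2 siRNA, 77.8 on the array labelled TANGO siRNA, 259.6 on the array labelled MATE2 siRNA and 238 on the control array. The array labelled TANGO siRNA was the low one, at a log2 ratio of -1.62. This ratio stayed past 2-fold under all 12 alternatives, between -1.64 and -1.05. The flag filters among them leave a ratio unchanged by design, and the filter for bright probes left this probe out. The array labelled MATE2 siRNA, which shared the low SLC47A2 signal, was at 0.12.

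The other TMPO probe, GE78991, had a signal of 86.3 on the array labelled LEMD1 siRNA, 72.4 on the array labelled MIA siRNA, 54.6 on the array labelled MIA2 siRNA, 82.1 on the array labelled TANGO siRNA, 82.9 on the array labelled MATE2 siRNA and 56.7 on the control array. Its ratio on the array labelled TANGO siRNA was 0.53, above control, so the probes differed by 2.15 there, against a median gap of 0.48 over genes with several good probes. Both TMPO probes were within 2-fold of control on the other 4 siRNA arrays. The files do not say which TMPO isoforms the probes detect.

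BANF1 was represented by a bright and a dim probe. GE61222, the bright one, had a signal of 565 on the array labelled LEMD1 siRNA, 533 on the array labelled MIA siRNA, 386 on the array labelled MIA2 siRNA, 452 on the array labelled TANGO siRNA, 474 on the array labelled MATE2 siRNA and 516 on the control array. BANF1 was lowest on the array labelled MIA2 siRNA, at a log2 ratio of -0.42, and between -0.19 and 0.13 on the others. The dim probe, GE86482, was near background on the arrays labelled MATE2 siRNA, TANGO siRNA and MIA2 siRNA, and had a signal of 35.3 on the array labelled LEMD1 siRNA, 69.6 on the array labelled MIA siRNA and 63.6 on the control array. By the bound it was at least 1.65-fold lower than control on the array labelled MIA2 siRNA, at least 2.03-fold lower on the array labelled TANGO siRNA and at least 1.59-fold lower on the array labelled MATE2 siRNA. The bright probe gave no such difference, and the dim probe's control signal was less than 2 times the lowest good signal of that array, 34.2.

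LMNA encodes lamins A and C and had 3 probes. GE81529, the brightest, had a signal of 2777 on the array labelled LEMD1 siRNA, 1653 on the array labelled MIA siRNA, 2309 on the array labelled MIA2 siRNA, 2381 on the array labelled TANGO siRNA, 1109 on the array labelled MATE2 siRNA and 1857 on the control array. This probe was highest on the array labelled LEMD1 siRNA, at a log2 ratio of 0.58, and lowest on the array labelled MATE2 siRNA, at -0.74. GE85803 had a signal of 233 on the array labelled LEMD1 siRNA, 209 on the array labelled MIA siRNA, 221 on the array labelled MIA2 siRNA, 143 on the array labelled TANGO siRNA, 488 on the array labelled MATE2 siRNA and 224 on the control array. It was highest on the array on which the brightest probe was lowest, at a log2 ratio of 1.13. That ratio passed 2-fold under 9 of 12 alternatives, the lowest value being 0.91. The flag filters counted among the 9 leave a ratio unchanged by design.

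The last LMNA probe, GE872322, had a signal of 43.8 on the array labelled LEMD1 siRNA, 52.5 on the array labelled MIA siRNA, 57.1 on the array labelled MIA2 siRNA, 63.6 on the array labelled TANGO siRNA, 71.3 on the array labelled MATE2 siRNA and 66.2 on the control array. It was lowest on the array labelled LEMD1 siRNA, at -0.60, where the brightest probe was highest. The spread of the LMNA probes was 1.18 on the array labelled LEMD1 siRNA and 1.87 on the array labelled MATE2 siRNA, against median gaps of 0.33 and 0.54 over genes with several good probes. The gap was 1.001 on the array labelled TANGO siRNA, against a median of 0.48, and 0.53 on the array labelled MIA2 siRNA, against 0.42. On each of these 4 arrays the LMNA probes lay on both sides of control, so no direction of LMNA as a gene can be given for them. GE81529 cites a RefSeq mRNA, and GE85803 and GE872322 cite other GenBank entries.

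The B-type lamins were each measured by 1 probe. LMNB1, a lamin of proliferating cells that is lost in senescence, had a signal of 119 on the array labelled LEMD1 siRNA, 108 on the array labelled MIA siRNA, 95.2 on the array labelled MIA2 siRNA, 51.2 on the array labelled TANGO siRNA, 57.1 on the array labelled MATE2 siRNA and 101 on the control array. The arrays with low SLC47A2 were thus the low ones for LMNB1, at log2 ratios of -0.98 on the array labelled TANGO siRNA and -0.82 on the array labelled MATE2 siRNA, both under 2-fold. LMNB2 had a signal of 202 on the array labelled LEMD1 siRNA, 132 on the array labelled MIA siRNA, 174 on the array labelled MIA2 siRNA, 251 on the array labelled TANGO siRNA, 203 on the array labelled MATE2 siRNA and 138 on the control array. LMNB2 ran the other way on the array labelled TANGO siRNA, at 0.86, and on the array labelled MATE2 siRNA, at 0.56, also under 2-fold. The platform table lists both LMNB2 and CFL1 for this probe, which was assigned to LMNB2 from the accession in the scanner files.

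**Figure D3:**
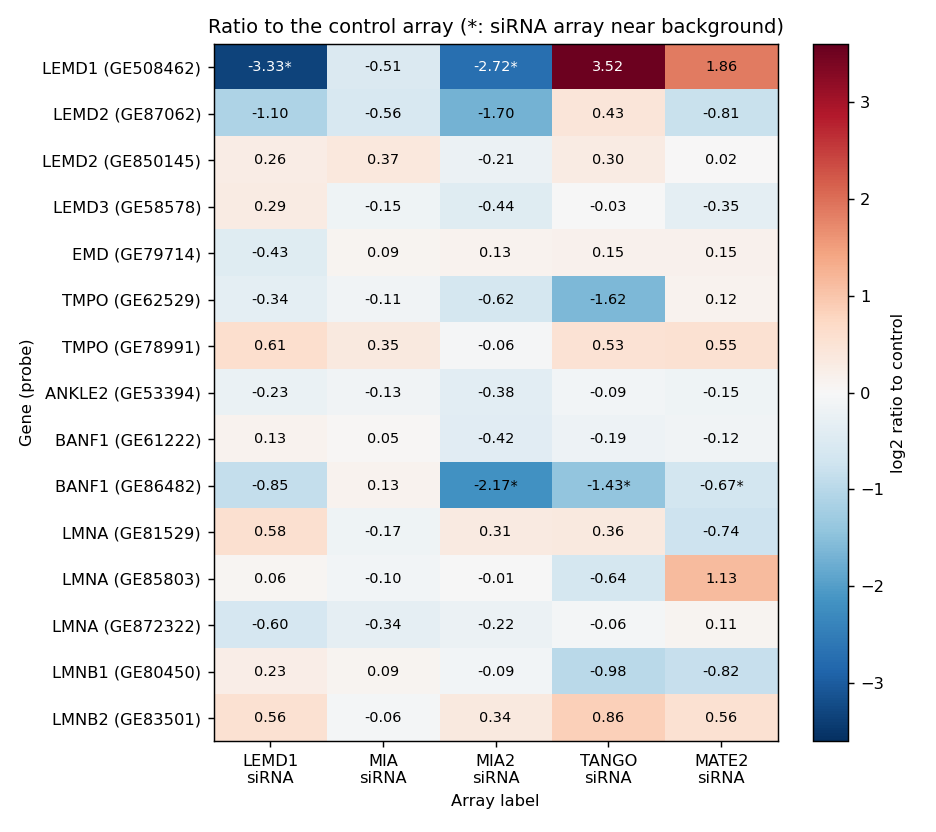
Log2 ratio of each siRNA array (columns) to the control array for the 15 probes of LEM domain and lamin genes (rows), with an asterisk where the spot of the siRNA array was near background. The LEMD1 row runs from -3.33 to 3.52, and most other cells are within 1 of 0.

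Counted over the group, 6 of the 70 probe and array pairs with good spots on both arrays differed by at least 2-fold from control, and they fell on 4 genes, LEMD1, LEMD2, TMPO and LMNA. LEMD3, EMD, ANKLE2, BANF1, LMNB1 and LMNB2 had none. On the array labelled LEMD1 siRNA, 1 of 14 probes was lower and 0 were higher, where 2.57% of the 27466 probes compared were lower and 1.56% higher. The array labelled MIA siRNA had 0 of 15 past 2-fold in either direction, where 0.318% of all probes were lower and 0.588% higher. On the array labelled MIA2 siRNA, 1 of 13 was lower and 0 were higher, beside 3.74% lower and 2.88% higher among all probes. The array labelled TANGO siRNA had 1 of 14 lower and 1 higher, beside 6.43% lower and 4.58% higher. The array labelled MATE2 siRNA had 0 of 14 lower and 2 higher, beside 7.55% lower and 5.05% higher. These counts leave out LEMD1 on the arrays labelled LEMD1 siRNA and MIA2 siRNA and the dim BANF1 probe on 3 arrays, whose spots were near background, and counts of 0 to 2 among at most 15 probes do not set the group apart from the rest of the array.

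The medians of the group were near those of all probes except on the array labelled MIA2 siRNA, at -0.21 against 0.052. The members' median log2 ratio was 0.095 on the array labelled LEMD1 siRNA, -0.098 on the array labelled MIA siRNA, -0.21 on the array labelled MIA2 siRNA, 0.059 on the array labelled TANGO siRNA and 0.061 on the array labelled MATE2 siRNA. Over all probes compared, the medians lay between -0.0081 and 0.052. The array labelled MIA2 siRNA was the one on which most members lay below control, 10 of 13 probes, against 6 of 14 on the array labelled LEMD1 siRNA. It was also the lowest of the 6 arrays for 6 of the 13 member probes that were good throughout, namely both LEMD2 probes, LEMD3, 1 TMPO probe, ANKLE2 and the bright BANF1 probe. The shares of all probes below control or lowest on that array were not counted, so these counts do not set the members apart. The array labelled MIA2 siRNA had the fewest good spots of all, 27545. None of the 5 lamin probes was lowest there.

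Set against the robust standard deviation of all ratios on the same array, 7 of 14 member probes lay farther than 1 from the array's median on the array labelled LEMD1 siRNA, where 33.3% of all probes did, and 2 of 13 on the array labelled MIA2 siRNA, where 32.9% did. The count was 5 of 15 on the array labelled MIA siRNA, 5 of 14 on the array labelled TANGO siRNA and 5 of 14 on the array labelled MATE2 siRNA, beside 32.2%, 33.6% and 34.6% of all probes.

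The range over the 6 arrays described how far each probe moved irrespective of control. Its median was 0.73 on the log2 scale over the 13 member probes good on all arrays and 0.81 over all 23444 such probes. LEMD2 GE87062 had a range of 2.13, which 3.91% of all probes exceeded, and LMNA GE85803 and TMPO GE62529 had ranges of 1.77 and 1.74, exceeded by 7.63% and 8.09%. At the other end, BANF1 GE61222, LEMD2 GE850145 and EMD had ranges of 0.55, 0.57 and 0.58, exceeded by 76.7%, 74.0% and 73.1% of all probes. LEMD2, LMNA and TMPO, which held the 3 widest ranges, each had another probe with a narrower one. LEMD1, with 4 good spots, was left out of this ranking.

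The arrays with low LEMD1 were compared directly. Between the arrays labelled LEMD1 siRNA and MIA2 siRNA, 0 of the 13 member probes differed by at least 2-fold, where 0.926% of all probes did. Their median difference was 0.38 on the log2 scale against 0.24 over all probes. Between the arrays labelled MATE2 siRNA and TANGO siRNA, 4 of 13 differed by at least 2-fold, where 9.58% of all probes did, and the median difference was 0.28 for members and 0.33 for all probes. Those 4 were LEMD2 GE87062, TMPO GE62529, LMNA GE81529 and LMNA GE85803. LEMD1, left out of this count but good on both of these arrays, also differed, by 3.16-fold. The array labelled MIA siRNA and control were the most alike, with a median difference of 0.13 over the members and 0.19 over all probes.

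Other genes of the nuclear envelope were counted from lists of 92 genes, 86 of which had a named probe, with 1 probe taken per gene. On the array labelled LEMD1 siRNA, 3 of 82 genes were at least 2-fold lower and 2 higher, beside 3.95% and 2.07% of 13255 named genes. The lower ones were SPAST, the microtubule-severing enzyme spastin, at -1.16, FNTA, the shared subunit of the enzymes that prenylate lamins and other proteins, at -1.01, and NUP35, a nuclear pore subunit, at -1.001. The higher ones were NUP98, a mobile pore protein, at 1.27 and CTNNB1, beta-catenin, at 1.16. NUP98 had a signal of 98.5 on the array labelled LEMD1 siRNA and 40.7 on the control array, where it was close to the lowest good signal of 34.2. CTNNB1 had 107 and 48.0 on the same arrays, so its control signal was also not far above that lowest good signal. FNTA had a signal of 205 on the array labelled LEMD1 siRNA and 227 on the array labelled MIA2 siRNA, against 413 on the control array, with 401 to 475 on the other 3 siRNA arrays. None of the 5 passed 2-fold with normexp background correction, with no background correction or with 50 added to the signal. The median of the lists was -0.11 and that of all named genes -0.022.

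A count of 0 among 82 list genes was found on the array labelled MIA siRNA, beside 0.26% lower and 0.39% higher among all named genes. The array labelled MIA2 siRNA had 8 of 81 lower and 0 higher, beside 5.2% and 3.34%, and a list median of -0.36 against -0.0064. The array labelled TANGO siRNA had 15 of 81 lower and 4 higher, beside 9.16% and 5.53%, and a median of -0.31 against -0.032. The array labelled MATE2 siRNA had 20 of 75 lower and 2 higher, beside 11.7% and 6.04%, and a median of -0.46 against -0.033. The list median was thus below that of all named genes on these 3 arrays. By less, it was also below on the other siRNA arrays. It was -0.11 against -0.022 on the array labelled LEMD1 siRNA and -0.089 against -0.040 on that labelled MIA siRNA. These counts and medians describe single arrays, rest on 1 probe per gene and were not tested. On the array labelled MATE2 siRNA, HDAC3, RB1 and SYNE2 were counted lower at -1.14, -1.66 and -1.67. Another good probe of each was at 0.72, 0.064 and 0.70 there. TOR1AIP2 also had good probes on both sides of control, while both NDC1 probes were past 2-fold lower, as given below.

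The genes named here for the other arrays were chosen after their values were seen. LPIN1, a phosphatidate phosphatase whose relatives shape the nuclear membrane, had a signal of 1275 on the array labelled LEMD1 siRNA, 1611 on the array labelled MIA siRNA, 883 on the array labelled MIA2 siRNA, 333 on the array labelled TANGO siRNA, 192 on the array labelled MATE2 siRNA and 1911 on the control array. It was at least 2-fold lower on 3 arrays, at log2 ratios of -1.11, -2.52 and -3.32 in that sequence of labels from MIA2 siRNA on. CBX5, the heterochromatin protein HP1 alpha, was at -1.78 on the array labelled TANGO siRNA and -2.76 on the array labelled MATE2 siRNA, and 0.42 on the array labelled LEMD1 siRNA. ICMT, which methylates prenylated lamins, was at -1.22 on the array labelled MIA2 siRNA, -1.07 on that labelled TANGO siRNA and -1.21 on that labelled MATE2 siRNA, and at -0.71 on the array labelled LEMD1 siRNA. Among pore genes, NUP85 had log2 ratios of -1.50 on the array labelled TANGO siRNA and -2.38 on the array labelled MATE2 siRNA. By the probe taken, NUP50, NUP88, NUP160 and NDC1 were also past 2-fold on both. The other NDC1 probe, GE55839, was at -0.56 on the array labelled TANGO siRNA, under 2-fold, and at -1.31 on that labelled MATE2 siRNA. SEC13, which serves both the pore and the COPII vesicle coat, was higher on both, at 1.09 and 1.51. TOR1AIP2, a torsin activator of the nuclear envelope and endoplasmic reticulum, was at -1.53 and -1.67 by the probe taken, and of its other probes GE55996 was at -1.04 on the array labelled MATE2 siRNA and near background on the array labelled TANGO siRNA, whereas GE82675, good on both, was at 0.51 and 0.72 on them. LBR, the lamin B receptor, was within 2-fold throughout, from -0.92 on the array labelled MATE2 siRNA to 0.61 on the array labelled LEMD1 siRNA. ANKLE1, the remaining LEM domain gene on the lists, was near background on all arrays.

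**Figure D4:**
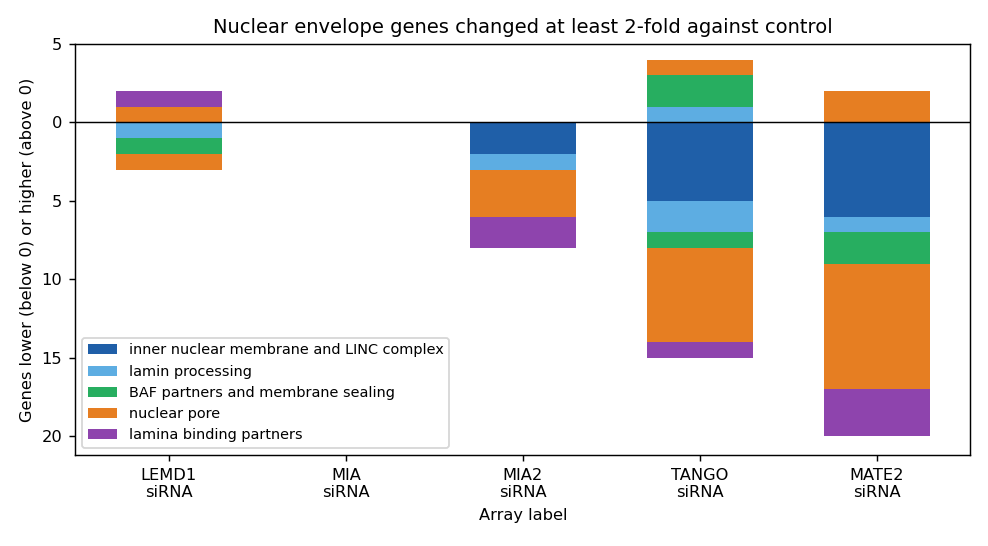
Number of nuclear envelope genes at least 2-fold lower (below 0) or higher (above 0) than on the control array, for each of the 5 siRNA arrays, coloured by list. The array labelled MIA siRNA has none, while the array labelled TANGO siRNA has 15 lower genes of 81 compared, and the array labelled MATE2 siRNA 20 of 75.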

How the data were processed

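RNA of HSC3 cells was measured on 6 CodeLink Human Whole Genome Bioarrays with Cy5, 1 per condition, and groups were taken from the sample labels. The deposited scanner files hold, per the file headers, CodeLink Expression Analysis 5.0.0.31312 output of the intensity of each spot, as the spot mean less the median of the local background. A deposited table of normalized intensity, which the authors quantile normalized in the Microarray Data Analysis Tool, is linear, not centred and not logged, and every value of it was within 1% plus 1 of scanner intensity quantile normalized over all spots, control and masked spots included. The signals reported here were normalized without those spots, and over 85 good spots of the members they differed from the table by a median of 0.188% and at most 4.71%. The table was used as an alternative.

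For the report, 320 probes masked on any array were left out of 53423 gene probes, the other 53103 were quantile normalized across all 6 arrays, any value below 1 was raised to 1 and log2 was taken (Python 3.11.15, numpy 2.4.6, pandas 2.3.3; normexp in limma 3.58.1, R 4.3.3). Probes were named from the platform table where it gives 1 gene (23311 probes) or from the accession in the scanner file (1254 probes), with RefSeq symbols. The other 28538 were left unnamed. The platform table gives several genes for 898 of the probes, which were named only where the accession gave 1 gene, as for LMNB2. A probe listed for HSP90B1 and EMD carries the accession of HSP90B1 and was not counted as EMD. For the list genes the probe with the highest mean log2 signal was taken. No test was run, since each condition had 1 array. Precision is limited by the number of arrays. The 2-fold rule was run on simulated arrays as a check of the script.

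The members, lists and alternatives were chosen with earlier results of these data known. Named were all 10 members, list genes at least 2-fold changed on the array labelled LEMD1 siRNA, and the 5 genes nearest to LEMD1, with a spot near background raised to the lowest good signal of its array. The alternatives were median scaling, normalizing the 2 arrays alone, normexp, no background correction, the deposited table, 50 added to the signal, other flag filters, other comparators, and the mean over the probes of a gene. Normalizing without the other pair of arrays and using the array labelled MIA siRNA as comparator were added after seeing the data.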

Additional observations from a re-analysis of the deposited data

How the results depend on the processing

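No paired analysis was possible because each condition had 1 array. The bound on the LEMD1 difference between the array labelled LEMD1 siRNA and control, 10.1-fold, was 4.09 with normexp, 3.71 without background correction and 4.23 with 50 added to the signal, and lay between 7.08 and 10.3 under the other 6 alternatives. The count of member probes at least 2-fold changed on the array labelled LEMD1 siRNA, 1, was 2 with a good spot on at least 1 array or with no filter on flags, and 0 with the median of the other 5 arrays or the array labelled MIA siRNA as comparator. On the array labelled MIA2 siRNA the count of 1 was 3 with a good spot on at least 1 array and with no filter. On the array labelled TANGO siRNA the count of 2 was 1 among bright probes. With a good spot on at least 1 array or no filter it was 3, adding the dim BANF1 probe. It was also 3 against the median of the other 5 arrays, adding LEMD2 GE87062, and against the array labelled MIA siRNA, adding LMNB1. On the array labelled MATE2 siRNA the count of 2 was 1 with normexp, without background correction and with 50 added. Against the median of the other 5 arrays it was 3, adding LMNA GE81529 as lower. The count was 0 on the array labelled MIA siRNA under all 11 alternatives. The count of nuclear envelope list genes on the array labelled LEMD1 siRNA, 5, was 0 with normexp, without background correction and with 50 added, 3 with the deposited table, with the 2 arrays normalized alone and with the remaining 5 arrays as comparator by their median, and 2 among bright probes and against the array labelled MIA siRNA. No ratio of a member probe past 2-fold changed direction under any of 12 alternatives, though the flag filters among these cannot alter a ratio. The looser flag filters admit more probes and the bright filter fewer, and the causes were otherwise not tested. Spots near background limit LEMD1 and the dim BANF1 probe to bounds.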
